A study of Mus musculus with 6 samples.

Results

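Matrix metalloproteinases (MMPs), ADAMTS proteases and their tissue inhibitors, the TIMPs, were followed in 6 RNA sequencing libraries of tumours grown from HM1, a murine ovarian cancer line. The members were all genes with a symbol of the form Mmp, Adamts or Timp followed by a number. There were 46 of them among 57462 genes, 23 Mmp, 19 Adamts and 4 Timp genes. In 3 libraries the tumour cells carried a control hairpin RNA (shControl, genotype and treatment labelled wild type) and in the other 3 a hairpin that knocks down the sialyltransferase ST3GAL3 (shST3GAL3). All 6 tumours belong to a model of early tumours. The sources used here do not give host strain, age, site of growth or number of hairpin clones, nor do they state whether the libraries of a group stem from different animals. The p-values therefore reflect the spread between these libraries, which may be technical.

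MMPs are zinc-dependent proteases that cleave collagens, gelatins, elastin and other matrix proteins. Most are secreted as inactive precursors, while the membrane-type MMPs act at the cell surface. ADAMTS enzymes are secreted relatives that trim procollagens and cut proteoglycans such as versican. TIMPs bind the active site and block it, with TIMP3 the main family member to inhibit ADAMTS enzymes as well. In tumours these genes are expressed by cancer cells, fibroblasts, endothelial cells and leukocytes, so a level in bulk tissue is a sum over cell types. In such bulk libraries a change in the number of cells of a type and a change in RNA per cell cannot be told apart.

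Values are TPM, a relative abundance corrected for gene length, which can be compared between genes. TPM keeps no read number, so the depth behind each value is unknown. St3gal3 stood at 13.79 to 14.03 TPM in shControl, against 6.77 to 8.44 TPM in shST3GAL3 libraries, lower in all 3. Of the epithelial markers, Krt8, Krt18 and Krt19 stood between 384 and 1304 TPM, while Epcam (at most 1.17 TPM) and the ovarian epithelial marker Pax8 (at most 1.65 TPM) were near 0. The library shST3GAL3 1 stood apart from the other 5. Its summed fibroblast markers reached 7395 TPM, against 841 to 2273 TPM elsewhere, and its summed epithelial markers were the lowest at 1779 TPM, against 2702 to 3690 TPM. That epithelial sum was mostly Krt8, Krt18 and Krt19, and Msln was also lowest there (13.64 TPM). Cdh1 (9.46 TPM, against 2.44 to 3.14 TPM elsewhere) and Epcam (1.17 TPM, against at most 0.31 TPM) were instead highest in shST3GAL3 1. Each group difference of a tested member is therefore given with and without that library.

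Of the 46 members, 28 reached 1 TPM in no fewer than 3 libraries and entered the test, 15 Mmp, 10 Adamts and 3 Timp genes. At a limma adjusted p under 0.05 over all genes, 0 of 28 were called (background 0.00704% of 14207 genes), with adjusted p between 0.380 and 0.973. The hairpin target St3gal3 was not called either (log2 fold change -0.80, SE 0.11, limma adjusted p = 0.348). A count of 0 therefore does not show that the members were unchanged. At an unadjusted limma p under 0.05, 13 of the 28 members were higher in shST3GAL3 tumours (background 9.19%) and 0 were lower (background 3.78%). That count was 12 without shST3GAL3 1, and 6, 5 and 7 without shControl 1, 2 and 3. The shST3GAL3 range was entirely above the shControl range for 15 of the 28 genes (background 15.7%) and entirely below it for 0 (background 7.76%). Adamts15 passed the filter only through its shST3GAL3 values and so had to differ. Without it the counts were 12 of 27 and 14 of 27. Over all 46 members, with Adamts15 and those under the filter included, the groups were separated upwards for 18 and downwards for 0. The share over all unfiltered genes was not computed, so this count has no background. Its additions under the filter were low: Mmp17 (at most 1.01 TPM), Adamts8 (at most 0.51 TPM) and Adamts20 (at most 0.09 TPM). The median log2 fold change of the 28 was 0.51, against 0.01 for all genes tested, and 0.31 without shST3GAL3 1. Without Adamts15 this median was 0.43, and 0.22 when shST3GAL3 1 was left out as well. The highest of the 6 values was that of shST3GAL3 1 for 24 of the 28 genes (background 28.7%), and for 23 of 27 without Adamts15.

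**Figure D1:**
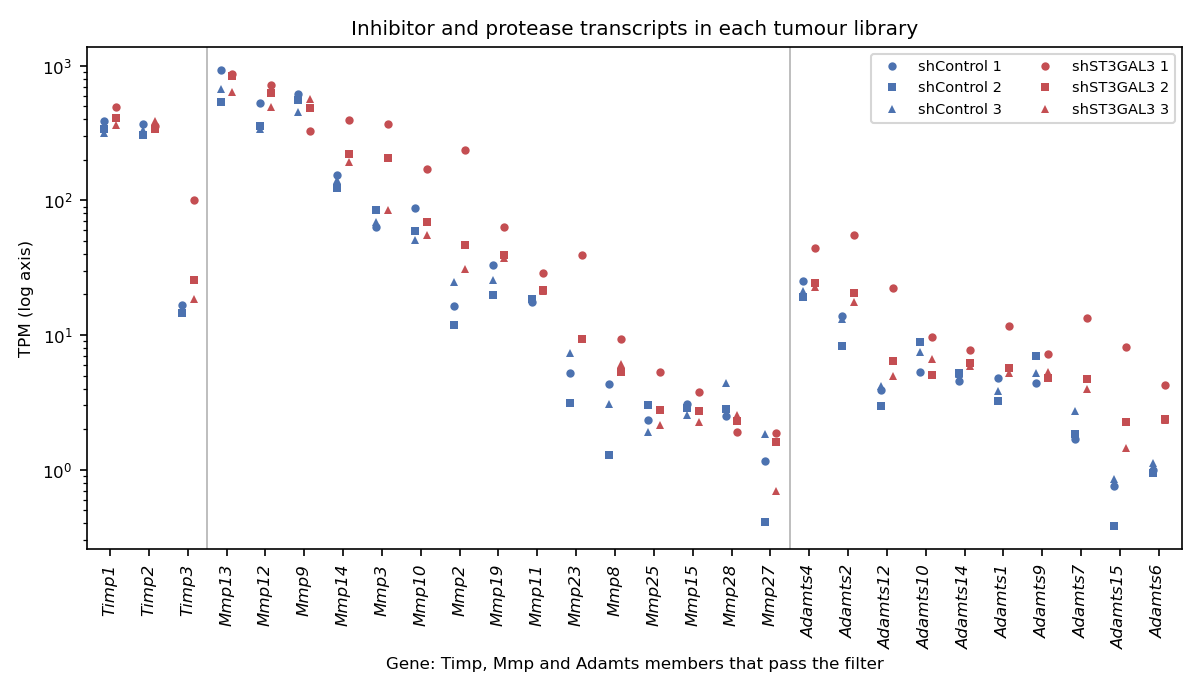
TPM (log axis) of the 28 tested genes in each library, Timp genes left, Mmp genes in the middle and Adamts genes right, ordered by mean within each family. Blue marks are shControl and red marks shST3GAL3, with a circle, square and triangle for replicates 1, 2 and 3. The red circle of shST3GAL3 1 is the highest mark for 24 of the 28 genes.

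A run of 10 Mmp genes lies on chromosome 9, in the order Mmp13, Mmp12, Mmp1b, Mmp3, Mmp1a, Mmp10, Mmp8, Mmp27, Mmp20 and Mmp7 by RefSeq positions on GRCm38.p6. The files are on the build GRCm39, so these positions serve for neighbourhood and sequence only. These neighbours spanned the whole range of levels, from a mean of 747 TPM for Mmp13 over the 6 libraries to 0 TPM for Mmp20. AP-1, the dimer of Fos and Jun proteins, is a textbook activator of several MMP genes, and its element TGAGTCA was searched on both strands (its reverse is TGACTCA) in the 250 bases before each start. RefSeq promoters were at hand for 32 of the 46 members. There was no entry for Mmp2, Mmp9, Mmp16, Mmp17, Mmp19, Adamts4, Adamts5, Adamts6, Adamts7, Adamts8, Adamts10, Adamts15, Adamts16 and Adamts19. The element was found in 6 of the 10 chromosome 9 Mmp promoters and in 0 of the 22 others, against 4.43% of 27025 promoters of all genes. The last 120 bases before the start are shown for those 6 and for Mmp12, an abundant neighbour with no match, to set the shared element beside the levels. Capitals mark the match, which begins 35 bases before the start in Mmp13, 46 in Mmp3, 63 in Mmp10 and Mmp7, 73 in Mmp1a and 93 in Mmp1b.
Mmp13 (chr9:7272394-7272513, plus strand): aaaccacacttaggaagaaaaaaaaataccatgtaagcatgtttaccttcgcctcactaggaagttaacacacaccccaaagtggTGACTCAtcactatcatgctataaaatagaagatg
Mmp3 (chr9:7445702-7445821, plus strand): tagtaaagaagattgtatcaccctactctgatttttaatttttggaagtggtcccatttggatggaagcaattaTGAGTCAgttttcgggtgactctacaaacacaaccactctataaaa
Mmp10 (chr9:7502222-7502341, plus strand): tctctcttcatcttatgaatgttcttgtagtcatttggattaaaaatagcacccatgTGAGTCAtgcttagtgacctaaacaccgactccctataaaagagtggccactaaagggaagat
Mmp7 (chr9:7691970-7692089, plus strand): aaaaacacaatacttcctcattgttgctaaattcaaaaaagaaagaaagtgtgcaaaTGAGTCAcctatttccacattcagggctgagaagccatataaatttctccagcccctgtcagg
Mmp1a (chr9:7464021-7464140, plus strand): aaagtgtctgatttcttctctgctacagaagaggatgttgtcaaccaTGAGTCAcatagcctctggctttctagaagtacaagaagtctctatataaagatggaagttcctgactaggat
Mmp1b (chr9:7388027-7388146, minus strand): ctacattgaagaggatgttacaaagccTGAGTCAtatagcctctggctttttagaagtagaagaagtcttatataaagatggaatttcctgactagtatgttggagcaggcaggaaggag
Mmp12 (chr9:7344277-7344396, plus strand): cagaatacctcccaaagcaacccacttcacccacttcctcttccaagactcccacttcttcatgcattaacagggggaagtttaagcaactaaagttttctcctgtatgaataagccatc
The match was thus shared by genes with high levels (Mmp13, Mmp3, Mmp10) and by genes near 0 (Mmp7 at a mean of 0.01, Mmp1a at 0.047 and Mmp1b at 0.135 TPM). Mmp12, without the element, had a mean of 510 TPM. Mmp1a and Mmp1b are close copies, and exons of Mmp1b overlap those of Mmp12 on the other strand, so reads could have been divided between them.

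Among the inhibitors, Timp1 and Timp2 were abundant and close to level, and Timp3 was low except in shST3GAL3 1. Timp1 (ENSMUSG00000001131), a secreted inhibitor that also binds the precursor of MMP9, stood at 390, 337 and 317 TPM in shControl 1, 2 and 3, against 491, 412 and 363 TPM in shST3GAL3 1, 2 and 3. The groups overlapped, since shST3GAL3 3 lay below shControl 1 (log2 fold change 0.27, SE 0.13, and 0.16 without shST3GAL3 1). Timp2 (ENSMUSG00000017466), which bridges MMP14 and the precursor of MMP2 at the cell surface, stood at 370, 306 and 335 TPM, against 356, 339 and 387 TPM in the same order (0.10, SE 0.09, and 0.11 without shST3GAL3 1). Its spread within groups was as wide as the gap between them. Timp3 (ENSMUSG00000020044), the matrix-bound inhibitor, stood at 16.72, 14.51 and 15.28 TPM, against 100, 25.54 and 18.58 TPM. All 3 shST3GAL3 values were higher, but most of the difference came from shST3GAL3 1 (1.18, SE 0.57, limma adjusted p = 0.402, and 0.47 without it). Exons of Syn3, at a mean of 0.178 TPM, overlap Timp3 on the other strand. Timp4, found mainly in heart and brain, did not exceed 0.08 TPM in any library.

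The collagenases, which cut the triple helix of fibrillar collagen, were dominated by Mmp13 (ENSMUSG00000050578). Mmp13 was the most abundant member, at 932, 535 and 668 TPM in shControl, against 865, 843 and 638 TPM in shST3GAL3 1, 2 and 3. The shST3GAL3 range lay inside the shControl range, and the log2 fold change of 0.16 (SE 0.22) was 0.08 without shST3GAL3 1 and turned to -0.03 without shControl 2. Mmp8, the neutrophil collagenase, was far lower, at 4.36, 1.29 and 3.10 TPM, against 9.42, 5.35 and 6.06 TPM. Here the groups did not overlap (1.07, SE 0.35, adjusted p = 0.380), and the difference was 0.86 without shST3GAL3 1. The summed neutrophil markers did not separate the groups in the same way, with 86.4 to 131 TPM in shControl, against 335, 61.9 and 110 TPM in shST3GAL3 1, 2 and 3. Of the 9 neutrophil markers, 2 (Camp and Ngp) stayed under 1 TPM in every library, and Ly6g and Ltf did not exceed 2.01 and 1.88 TPM. Others were expressed in every library, such as S100a9 (23.6 to 199 TPM), Retnlg (10.1 to 46.9 TPM) and Csf3r (8.96 to 18.9 TPM). The part of neutrophils in the Mmp8 values was not tested.

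The gelatinases went different ways. Mmp9 (ENSMUSG00000017737), which cleaves gelatin and basement membrane collagen, stood at 621, 559 and 450 TPM in shControl, against 326, 488 and 568 TPM in shST3GAL3 1, 2 and 3. It was lowest in shST3GAL3 1, the library where most members were highest. The log2 fold change of -0.26 (SE 0.22) was -0.03 without that library. Mmp2 (ENSMUSG00000031740), the gelatinase of fibroblasts, stood at 16.30, 11.78 and 24.82 TPM in shControl, against 237.93, 46.24 and 31.18 TPM in shST3GAL3 1, 2 and 3. It had the largest log2 fold change of the tested members (2.00, SE 0.73, adjusted p = 0.380), with no overlap, and 1.13 without shST3GAL3 1. Because Mmp9 outweighed Mmp2, their summed level was 561 ± 81.5 TPM in shControl, against 566 ± 32.3 TPM in shST3GAL3 tumours (SD, n = 3 each).

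The stromelysins have a broad range of substrates and can activate other MMP precursors. Mmp3 (ENSMUSG00000043613), stromelysin-1, stood at 63.3, 84.14 and 69.21 TPM in shControl, against 366, 207 and 85.39 TPM in shST3GAL3 1, 2 and 3. The lowest shST3GAL3 value lay just above the highest shControl value (log2 fold change 1.37, SE 0.48, adjusted p = 0.380, and 0.88 without shST3GAL3 1). Mmp10, stromelysin-2 and a chromosome 9 neighbour of Mmp3, stood at 88.09, 59.49 and 51.2 TPM, against 171, 68.92 and 55.72 TPM. Only shST3GAL3 1 exceeded the control range, and the log2 fold change of 0.43 (SE 0.42) was -0.06 without it. Mmp11, activated inside the cell by furin, had means of 18.2 ± 0.541 and 23.9 ± 4.37 TPM, with no overlap (0.36, SE 0.13, and 0.22 without shST3GAL3 1). Exons of Chchd10, at a mean of 4.40 TPM, overlap it on the other strand.

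Mmp12 (ENSMUSG00000049723), the macrophage metalloelastase, stood at 531, 354 and 337 TPM in shControl, against 714, 630 and 496 TPM in shST3GAL3 1, 2 and 3. It was higher in 2 of 3 shST3GAL3 libraries than in any control, with shST3GAL3 3 below shControl 1. The log2 fold change was 0.60 (SE 0.21, adjusted p = 0.380) and 0.49 without shST3GAL3 1, a smaller loss than for Mmp2. Summed macrophage markers ran from 1114 to 1328 TPM in shControl and were 2364, 1804 and 1326 TPM in shST3GAL3 1, 2 and 3, with none of the 9 markers under 1 TPM throughout. Their part in the result was not tested.

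Mmp14 (ENSMUSG00000000957), the membrane-type protease that activates the MMP2 precursor and cleaves collagen at the cell surface, stood at 153, 123 and 142 TPM in shControl, against 398, 220 and 192 TPM in shST3GAL3 1, 2 and 3. The groups did not overlap (log2 fold change 0.88, SE 0.27, adjusted p = 0.380, and 0.56 without shST3GAL3 1). The other membrane-type genes were low. Mmp25, expressed by leukocytes, had means of 2.42 ± 0.554 and 3.42 ± 1.68 TPM, and Mmp15 had means of 2.82 ± 0.260 and 2.91 ± 0.770 TPM, both with overlap. Without shST3GAL3 1 their log2 fold changes went from 0.32 to 0.02 and from 0.02 to -0.13. Mmp16, Mmp17 and Mmp24 were under the filter, with no value above 1.01 TPM.

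Of the remaining MMPs, Mmp19, a secreted protease of basement membrane components, stood at 33.16, 19.69 and 25.7 TPM in shControl, against 62.94, 39.04 and 37.59 TPM in shST3GAL3 1, 2 and 3. All shST3GAL3 values were above the control range (log2 fold change 0.80, SE 0.25, adjusted p = 0.380, and 0.56 without shST3GAL3 1). Exons of Tmem198b overlap it on the other strand, at a mean of 19.9 TPM, and since the strand setting is not given, reads of such pairs cannot be told apart. Mmp23 had means of 5.20 ± 2.10 and 19.3 ± 17.3 TPM without overlap (1.44, SE 0.57, and 0.79 without shST3GAL3 1). Mmp28, also called epilysin, had the lowest log2 fold change of the tested members, with 3.24 ± 1.01 and 2.25 ± 0.330 TPM (-0.36, SE 0.21, overlap, and -0.28 without shST3GAL3 1). Mmp27 was close to 1 TPM in both groups (1.13 ± 0.710 and 1.40 ± 0.626 TPM), with a log2 fold change of 0.19 that was 0.04 without shST3GAL3 1. Mmp20, the enamel protease, and Mmp21 were listed at 0 in every library, and Mmp7 (matrilysin) at 0 in all but shST3GAL3 2 (0.06 TPM).

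**Figure D2:**
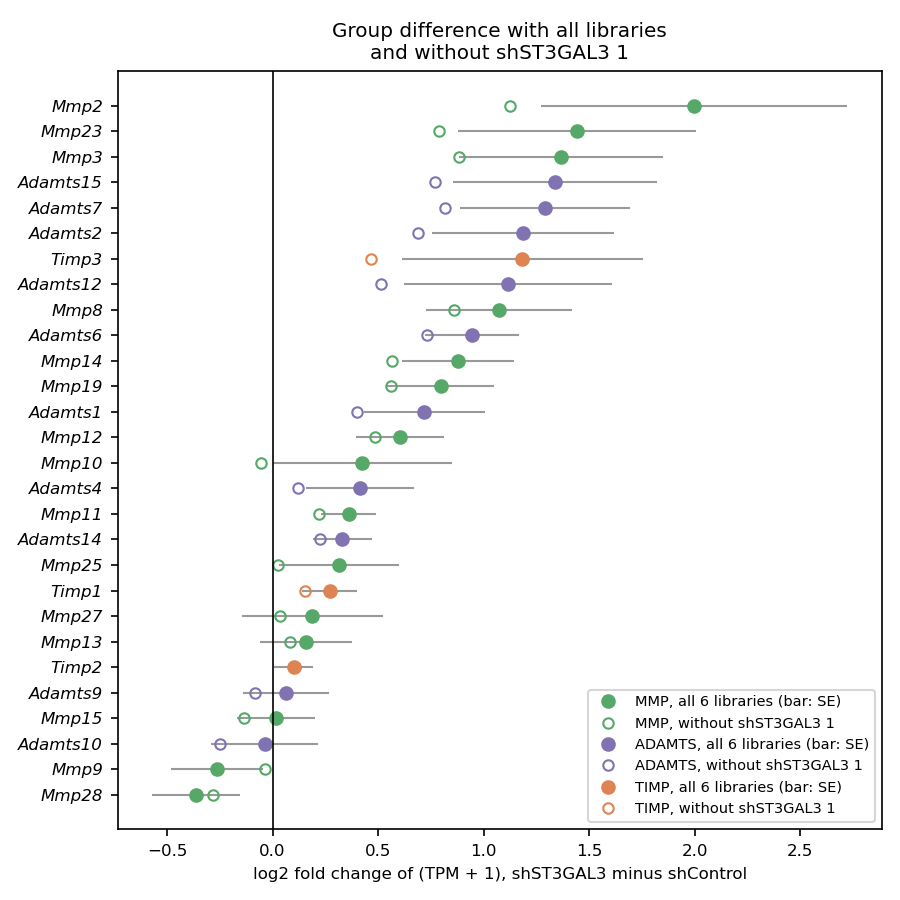
Log2 fold change on the log2(TPM + 1) scale (shST3GAL3 minus shControl) of the 28 tested genes. Filled marks with SE bars use all 6 libraries and open marks leave out shST3GAL3 1. The open marks lie closer to 0 for most genes on the right, with Mmp2 moving from 2.00 to 1.13 and Timp3 from 1.18 to 0.47.

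ADAMTS transcripts were scarcer than MMP transcripts but highest in shST3GAL3 1 in every tested case. Of the 10 tested Adamts genes, 5 had an unadjusted limma p under 0.05, all higher (background 9.19%), and 7 had shST3GAL3 ranges above the shControl range (background 15.7%). Without Adamts15 the counts were 4 of 9 and 6 of 9. The procollagen proteases remove the N-terminal propeptide from fibrillar procollagens. Adamts2 (ENSMUSG00000036545) stood at 13.77, 8.24 and 13.06 TPM in shControl, against 55.51, 20.57 and 17.57 TPM in shST3GAL3 1, 2 and 3 (log2 fold change 1.19, SE 0.43, adjusted p = 0.380, and 0.69 without shST3GAL3 1). All shST3GAL3 values were above the control range. Adamts14, with the same activity, had means of 5.01 ± 0.363 and 6.59 ± 1.02 TPM, also without overlap (0.33, SE 0.14, and 0.22 without shST3GAL3 1). Adamts3 was under the filter and had its highest value in shControl 3 (1.56 TPM).

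Of the proteoglycan-cleaving members, Adamts4 (aggrecanase-1) was the most abundant. Its levels were 25.19, 19.12 and 21.17 TPM in shControl, against 44.51, 24.52 and 22.85 TPM in shST3GAL3 1, 2 and 3. Only shST3GAL3 1 exceeded the control range (log2 fold change 0.41, SE 0.26, and 0.12 without it). Adamts15 stood at 0.76, 0.38 and 0.86 TPM in shControl, against 8.19, 2.25 and 1.45 TPM in shST3GAL3 1, 2 and 3 (1.34, SE 0.48, and 0.77 without shST3GAL3 1). Adamts1 had means of 3.95 ± 0.764 and 7.52 ± 3.55 TPM without overlap (0.72, SE 0.29, and 0.40 without shST3GAL3 1), and Adamts9 had 5.54 ± 1.36 and 5.80 ± 1.27 TPM with overlap (0.06, and -0.08 without shST3GAL3 1). Adamts5 (aggrecanase-2) was under the filter, at 0.44 ± 0.226 and 1.84 ± 1.63 TPM.

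Adamts7 and Adamts12, which share cartilage oligomeric matrix protein as a substrate, both had shST3GAL3 ranges above the shControl range. Adamts7 stood at 1.68, 1.83 and 2.71 TPM in shControl, against 13.37, 4.74 and 4 TPM in shST3GAL3 1, 2 and 3 (log2 fold change 1.29, SE 0.40, adjusted p = 0.380, and 0.82 without shST3GAL3 1). Exons of Tbc1d2b, at a mean of 18.4 TPM, overlap Adamts7 on the other strand. Adamts12 had means of 3.71 ± 0.641 and 11.3 ± 9.69 TPM (1.12, SE 0.49, and 0.51 without shST3GAL3 1). Adamts6 had the smallest p of all members (limma adjusted p = 0.380), at 1.00, 0.94 and 1.13 TPM in shControl, against 4.24, 2.37 and 2.34 TPM in shST3GAL3 1, 2 and 3. Its groups were well apart, and its log2 fold change of 0.94 (SE 0.22) was 0.73 without shST3GAL3 1. Adamts10, which binds fibrillin microfibrils, had means of 7.23 ± 1.80 and 7.10 ± 2.31 TPM (log2 fold change -0.04, SE 0.25, and -0.25 without shST3GAL3 1). It was 0.16 without shST3GAL3 2, so no direction can be given. Adamts13, the protease of von Willebrand factor made mainly in liver, did not exceed 0.02 TPM.

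The 18 members under the filter comprised 8 Mmp, 9 Adamts and 1 Timp gene. Their highest value was 4.19 TPM, for Adamts16 in shST3GAL3 1. In 10 of the 18 the highest library was shST3GAL3 1, and 2 were listed at 0 throughout. The share over all genes under the filter was not computed. That library also had the most genes at 1 TPM or more, 14762, against 13930 to 14365 elsewhere.

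Proteases and inhibitors were then set against each other as summed TPM over all members, as a description with no test. The 23 Mmp genes summed to 2474, 1779 and 1808 TPM in shControl 1, 2 and 3 and to 3233, 2588 and 2148 TPM in shST3GAL3 1, 2 and 3. The 19 Adamts genes summed to 66.8, 59.4 and 67.9 TPM and to 195, 85.6 and 78.2 TPM, with no overlap. The 4 Timp genes summed to 776, 658 and 668 TPM and to 948, 776 and 768 TPM, with Timp1 and Timp2 giving 89.4% to 97.8% of each sum. Both sides of the balance thus had higher means in the shST3GAL3 tumours, with overlap for the Mmp and Timp sums. The ratio of proteases to inhibitors was 3.27, 2.79 and 2.81 in shControl and 3.62, 3.44 and 2.90 in shST3GAL3 1, 2 and 3. The means were 2.96 ± 0.272 and 3.32 ± 0.376 (SD, n = 3 each), a log2 difference of 0.16 against a spread within groups of 0.15, and 0.10 without shST3GAL3 1. The ratio therefore overlapped between groups and differed by about the spread between replicates.

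**Figure D3:**
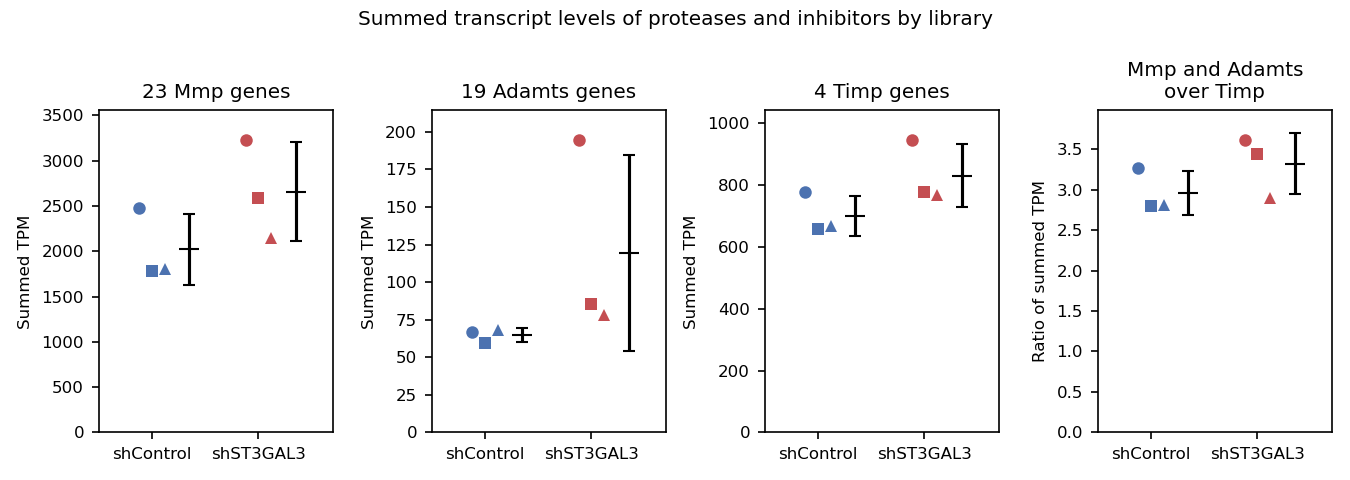
Summed TPM of the Mmp, Adamts and Timp genes, and the ratio of summed proteases to summed inhibitors, in each library. Blue marks are shControl and red marks shST3GAL3, with a circle, square and triangle for replicates 1, 2 and 3, and black bars give the mean ± SD. Only the Adamts sums are separate between groups, and the ratio overlaps (2.79 to 3.27 against 2.90 to 3.62).

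The sum of Mmp transcripts was carried by Mmp13, Mmp12 and Mmp9, whose share separated the groups. These 3 genes made up 84.2%, 81.4% and 80.5% of it in shControl 1, 2 and 3 and 58.9%, 75.8% and 79.2% in shST3GAL3 1, 2 and 3. The share of Mmp2, Mmp3 and Mmp14 was 9.41%, 12.3% and 13.0% in shControl and 31.0%, 18.3% and 14.4% in shST3GAL3 1, 2 and 3. These last 3 genes were chosen after their values were seen. Without the 3 most abundant proteases, the ratio of the other 39 proteases to the Timp genes was 0.589, 0.593 and 0.631 in shControl and 1.61, 0.919 and 0.683 in shST3GAL3 1, 2 and 3. That log2 difference of 0.73 was 0.39 without shST3GAL3 1.

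Known enzyme and inhibitor partners differed from each other in the direction of their transcript ratio. Mmp14 over Timp2 was 0.414, 0.402 and 0.423 in shControl and 1.12, 0.649 and 0.496 in shST3GAL3 1, 2 and 3, above the control range in all 3. Mmp2 over Timp2, the pair that meets in the MMP14 complex, was 0.0441, 0.0385 and 0.0741 in shControl and 0.668, 0.136 and 0.0807 in shST3GAL3 1, 2 and 3, also above. Mmp9 over Timp1 was 1.59, 1.66 and 1.42 in shControl and 0.665, 1.19 and 1.56 in shST3GAL3 1, 2 and 3, with overlap. Adamts4 over Timp3 was 1.51, 1.32 and 1.39 in shControl and 0.445, 0.960 and 1.23 in shST3GAL3 1, 2 and 3, below the control range in all 3. The other pairs computed overlapped between groups. Summed Adamts over Timp3 was 3.99, 4.10 and 4.45 in shControl and 1.95, 3.35 and 4.21 in shST3GAL3 1, 2 and 3. Mmp13 over Timp1 was 2.39, 1.59 and 2.11 in shControl and 1.76, 2.05 and 1.76 in shST3GAL3 1, 2 and 3. Mmp3 over Timp1 was 0.162, 0.250 and 0.218 in shControl and 0.745, 0.502 and 0.235 in shST3GAL3 1, 2 and 3, with shST3GAL3 3 inside the control range. These are ratios of transcripts in bulk tissue and say nothing of active enzyme.

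Genes around the MMP system were counted by list, with 0 of the 67 tested genes called at an adjusted p under 0.05 by limma. At an unadjusted p under 0.05, 25 were higher (background 9.19%) and 1 was lower (background 3.78%). The higher count was 26 without shST3GAL3 1, and 11, 6 and 11 without shControl 1, 2 and 3. In the list counts that follow, higher and lower refer only to the sign of the log2 fold change. How many of all tested genes lay above 0 was not computed, so these sign counts have no background. Each list median can be read against 0.01 over the 14207 tested genes, and 0.04 without shST3GAL3 1. Of the plasminogen system, whose product plasmin activates MMP precursors, 5 of 7 tested genes were higher and 2 lower (median log2 fold change 0.13, and 0.07 without shST3GAL3 1). Serpine2, an inhibitor of plasminogen activators, stood at 80.9 ± 14.2 TPM in shControl, against 152 ± 19.8 TPM in shST3GAL3 tumours without overlap (0.91, SE 0.16), and the activator gene Plat at 96.7 ± 9.98 and 77.3 ± 9.22 TPM (-0.32, SE 0.12, overlap). Plg itself was listed at 0. Of the ADAM sheddases 6 of 8 were higher (median 0.15, and 0.06 without shST3GAL3 1), with Adam8, of myeloid cells, at 37.9 ± 7.51 and 72.6 ± 31.6 TPM. Among the other matrix-cleaving proteases 8 of 10 were higher (median 0.38, and 0.18 without shST3GAL3 1), with Fap, a serine protease of activated fibroblasts, at 3.66 ± 0.0404 and 7.11 ± 2.24 TPM and Ctsk, a collagen-cleaving cathepsin, at 22.6 ± 6.84 and 85.1 ± 74.1 TPM. The list of other matrix protease regulators had 5 of 5 higher (median 0.77, and 0.25 without shST3GAL3 1), led by the C1 inhibitor gene Serping1 at 106 ± 31.3 and 345 ± 251 TPM. That list holds A2m, Tfpi2, Serping1 and Cst3, which encode protease inhibitors, and Pcolce, which encodes an enhancer of procollagen C-proteinase and not an inhibitor.

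Activators and cofactors were higher for 6 of 8 genes (median 0.26, and 0.10 without shST3GAL3 1), among them Furin, the convertase of Mmp11 and Mmp14 precursors, at 62.9 ± 3.53 and 86.8 ± 21.2 TPM. ADAMTS-like genes were higher for 3 of 4 (median 0.16, and 0.11 without shST3GAL3 1). Adamtsl1 stood at 0.853 ± 0.362 and 2.95 ± 2.68 TPM without overlap (log2 fold change 0.91, SE 0.45, and 0.39 without shST3GAL3 1), and Thsd4 at 29.7 ± 1.93 and 24.3 ± 10.1 TPM with overlap (-0.36, SE 0.30, and -0.0032 without shST3GAL3 1). The AP-1 subunits were higher for 6 of 7 (median 0.35, and 0.11 without shST3GAL3 1), with Junb at 170, 173 and 190 TPM in shControl, against 382, 238 and 227 TPM in shST3GAL3 1, 2 and 3. Substrates had the largest medians. Collagen genes were higher for 7 of 7 (median 1.43, and 0.74 without shST3GAL3 1), with Col1a1 at 242 ± 51.0 and 969 ± 924 TPM. That count includes Col4a1 (log2 fold change 0.04, and -0.01 without shST3GAL3 1) and Col4a2 (0.14, and 0.02), both with overlap. Proteoglycan and other matrix genes were higher for 11 of 11 (median 1.11, and 0.62 without shST3GAL3 1), with the decorin gene Dcn at 44.5 ± 17.2 and 161 ± 118 TPM. Among those 11 was Fn1, with overlap (log2 fold change 0.07, and -0.0048 without shST3GAL3 1).

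**Figure D4:**
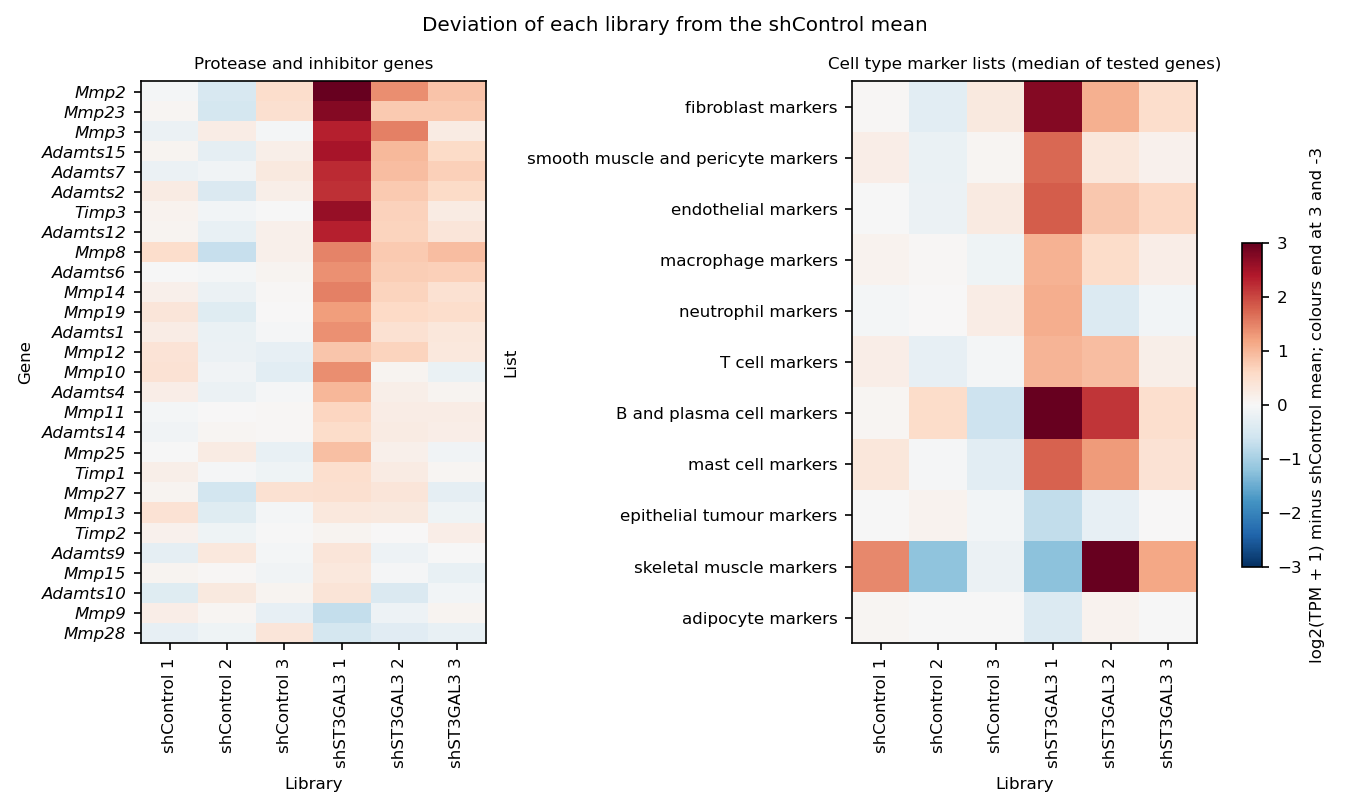
Difference of each library from the shControl mean on the log2(TPM + 1) scale, for the 28 tested genes (left) and for the median of each cell type marker list (right), with colours saturating at a difference of 3 in either direction. The shST3GAL3 1 column is red for most proteases and for fibroblast markers (2.76), and blue for Mmp9, Mmp28 and epithelial markers (-0.75).

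Markers of several cell types moved with these genes. The median deviation of the 28 members from the shControl mean was 1.13, 0.40 and 0.23 in shST3GAL3 1, 2 and 3. Without Adamts15 it was 1.00, 0.35 and 0.21. For the 10 fibroblast markers, which share Col1a1, Dcn and Fap with the lists above, the median deviation was 2.76, 1.07 and 0.53. For endothelial markers it was 1.82, 0.80 and 0.63, for macrophage markers 1.04, 0.56 and 0.21 and for epithelial markers -0.75, -0.25 and 0.01. The endothelial median includes Tek, which passed the filter only through its shST3GAL3 values. Of the 5 tested epithelial markers, 3 had a lower and 2 a higher log2 fold change, with Cdh1 among the higher. Summed fibroblast markers ran from 841 to 1357 TPM in shControl and from 1568 to 7395 TPM in shST3GAL3 tumours, and 0 of 10 were under 1 TPM throughout. Summed endothelial markers ran from 49.6 to 69.5 TPM and from 95.9 to 253 TPM, and smooth muscle and pericyte markers from 139 to 194 TPM and from 213 to 951 TPM. Of the 8 smooth muscle and pericyte markers, 3 had a shST3GAL3 range above the shControl range (background 15.7%). By sign, a count without a background, 7 were higher and 1 lower, namely Rgs5 (log2 fold change -0.02, overlap, and -0.42 without shST3GAL3 1). Summed T cell markers ran from 64.3 to 85.6 TPM and from 78.6 to 161 TPM, mast cell markers from 24.6 to 40.1 TPM and from 44.6 to 116 TPM, and B and plasma cell markers from 3.2 to 42.9 TPM and from 38.6 to 3917 TPM. Skeletal muscle markers overlapped, from 3.7 to 104 TPM and from 5.0 to 360 TPM. Summed adipocyte markers also overlapped, from 96.6 to 98.2 TPM and from 83.5 to 123 TPM, but their genes differed in direction. The shST3GAL3 range was above the shControl range for 5 of the 7 (Adipoq, Plin1, Fabp4, Lep and Cidec), with Fabp4 from 6.83 to 11.25 TPM in shControl and from 11.82 to 67.21 TPM in shST3GAL3 tumours. Of these 5 only Fabp4 passed the filter, and the share over genes under it was not computed, so the count has no background. Plin1 and Lep stayed under 1 TPM in every library, and the lowest shST3GAL3 value of Adipoq was 0.33 TPM, against at most 0.23 TPM in shControl. The shST3GAL3 range was below the shControl range for 1, Pparg, from 65.87 to 70.63 TPM and from 35.63 to 55.64 TPM. The part of these cell types in the protease and inhibitor values was not tested.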

How the data were processed

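RNA was measured in 6 tumour libraries, 3 per group, grouped by their titles. Per the submitters' processing notes, reads were handled with fastp, HISAT and RSEM on the build GRCm39, with no versions. The sources used here do not give the annotation release, the parameters or the strand setting. The deposited values are TPM per gene with 2 decimals, a unit judged from the values, which have decimals and sum to about the same total in each library. They keep no depth, so precision rests on the replicates. On log2(TPM + 1), group differences were fitted with limma 3.58.1 (R 4.3.3, prior variance following the mean, group as the sole term) for the 14207 genes reaching 1 TPM in no fewer than 3 libraries. P-values are two-sided and adjusted by Benjamini-Hochberg over all tested genes, with a threshold of 0.05. Fold changes on this scale understate those of low genes. The procedure was tested on simulated data.

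The members, and the 9 pathway and 11 cell type lists, were chosen with earlier results of these data known. By the naming rule, values in every library are given for the Timp genes and for the 10 Mmp or Adamts genes with the highest mean and the 10 with the smallest p. From each pathway list some of the 3 genes with the smallest p are given with values, not always the first. Eln, Vwf, Col3a1, Col1a2, Ctss and Adamtsl4 had a smaller p than a gene given from their list. Col4a1, Col4a2 and Fn1 are given outside this rule. Roles group members by textbook knowledge. Overlapping exons were read from GENCODE M21 (GRCm38) by gene ID, and promoters are from RefSeq (GRCm38.p6), using the first start listed per gene. Alternatives were other pseudocounts, filters and scalings, library weights, no trend, the replicate block, other protease and inhibitor sums, and each library left out. The ratios without Mmp9 and without the 3 most abundant proteases, and the count without Adamts15, were chosen after seeing the data. A further overlap with a member is not reported here.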

Additional observations from a re-analysis of the deposited data

How the results depend on the processing

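In all 15 alternative fits 0 members and 0 genes of the pathway lists were called, with a lowest adjusted p of 0.136 for a member. All genes called were 1 in the reported fit, 2 with a pseudocount of 0.1 or 0.5 or with no trend, 8 with library weights and 3 without shST3GAL3 1, 2 or 3. The members higher at an unadjusted limma p under 0.05 numbered 13, and 5 to 17 when 1 library was left out. The library titles do not say whether same-numbered libraries were paired, and the reported fit took them as unpaired. Correlations of their deviations from the group means were 0.01, -0.08 and 0.04, which cannot decide this with so few libraries. With the replicate block the members called stayed at 0 and those with an unadjusted limma p under 0.05 numbered 16. The sign was kept in every fit by 22 of the 28 tested members. When 1 library was left out, log2 fold changes ran from -0.0263 to 0.37 for Mmp13, from -0.0572 to 0.74 for Mmp10, from -0.25 to 0.16 for Adamts10, from -0.0834 to 0.22 for Adamts9, from -0.13 to 0.14 for Mmp15 and from -0.0817 to 0.42 for Mmp27. Quantile normalization gave -0.0251 for Adamts9 and -0.115 for Mmp15, library weights gave -0.0660 and -0.0672, and median-ratio scaling gave -0.0107 for Mmp15. The cause was not tested. The log2 difference of the protease to inhibitor ratio (0.16) was 0.52 for Adamts genes alone, 0.32 without Mmp9 and 0.73 without the 3 most abundant proteases, and 0.10 to 0.26 when 1 library was left out. TPM without read numbers sets no detection limit for the members near 0.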
